A study of Mus musculus with 24 samples.

Results

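Expression of 10 genes that encode lipid droplet coat proteins, CIDE proteins and their close partners was examined in mouse liver. These were Cidea, Cideb and Cidec of the CIDE family, Plin2, Plin3, Plin4 and Plin5 of the perilipin family, the lipase inhibitor gene G0s2, and Fitm1 and Fitm2 of the FIT family. They were chosen by gene name among the 37325 genes on the array, with earlier results of these data known. The probe of highest mean signal stood for each gene, and all 10 passed the filter on dim probes that left 21495 genes. The study asked how the p110α catalytic subunit of phosphoinositide 3-kinase in hepatocytes, an arm of insulin signaling, bears on the response of the liver to feeding and fasting. Liver RNA of male mice aged 12 weeks was hybridized to 1 array per mouse, in 4 groups of 6 mice. LWT_Fed and LWT_Fasted were floxed littermates that carried both floxed p110α alleles but no Cre, and LKO_Fed and LKO_Fasted were floxed mice that carried albumin-Cre, which deletes part of Pik3ca, the p110α gene, in hepatocytes and leaves it in the other cells of the liver. All mice were killed at ZT16, the fed groups with food and the fasted groups after 24 h without it.

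Each of 3 slides held 2 arrays of every group, and per array 54.7% to 63.0% of spots passed as well above background. The Pik3ca probe was not lower in arrays labelled LKO. Its mean log2 signal was 11.91 ± 0.21 (SD, n = 6) in LWT_Fed, 12.28 ± 0.14 in LWT_Fasted, 12.54 ± 0.26 in LKO_Fed and 12.26 ± 0.19 in LKO_Fasted. In fed mice it was higher in LKO by 0.58 without overlap of the groups (adjusted p = 0.00156), under the 1.5-fold limit, and its interaction of -0.60 was called (adjusted p = 0.0316). Whether this probe lies in the deleted part was not determined, so it does not check the genotype, and LWT and LKO stand here for the labels. All 8 hepatocyte markers, Alb and Ttr among them, were well above background on every array. Alb, Apoa2 and Serpina1a read from 18.71 to 19.01, near the top of the normalized scale, where little change could be seen, and Ttr was lower in fasted LKO by -0.41 (adjusted p = 2.2e-05), under the 1.5-fold limit. On the second principal component, replicates 1 and 2 of LKO_Fasted stood at 35.06 and 31.25 and the other 4 between 1.41 and 2.92. Replicates 1 and 5 of LWT_Fasted had the highest summed signal of adipocyte markers, so results were also computed without either pair.

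A lipid droplet is a core of triglyceride and cholesteryl ester under a single layer of phospholipid, and hepatocytes store in it the fatty acids that reach the liver from adipose tissue during fasting. Perilipins coat the droplet and govern the access of lipases to it. CIDE proteins gather at contacts between droplets and pass lipid from a smaller to a larger droplet, FIT proteins act in the endoplasmic reticulum where droplets form, and G0s2 binds and inhibits ATGL, the triglyceride lipase encoded by Pnpla2. Several of these genes are known targets of PPARα, a nuclear receptor that is active in fasting, and others follow insulin.

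Promoter windows from RefSeq (GRCm38.p6, 250 bases before to 50 after an annotated start) were found for 9 of the 10 genes, 11 windows in all. No window was found for Cidea. Windows are shown for Cidec and Plin2, whose fasting response was larger in LKO, and for the neighbouring genes Plin4 and Plin5, whose responses to genotype differed from each other. They lie at chr6:113435711-113436010 (Cidec), chr4:86670010-86670309 (Plin2), chr17:56109733-56110032 (Plin4) and chr17:56117499-56117798 (Plin5, the first of its windows), all on the minus strand and printed 5′ to 3′ along the gene. Capitals mark matches to the motifs searched on both strands.
Cidec: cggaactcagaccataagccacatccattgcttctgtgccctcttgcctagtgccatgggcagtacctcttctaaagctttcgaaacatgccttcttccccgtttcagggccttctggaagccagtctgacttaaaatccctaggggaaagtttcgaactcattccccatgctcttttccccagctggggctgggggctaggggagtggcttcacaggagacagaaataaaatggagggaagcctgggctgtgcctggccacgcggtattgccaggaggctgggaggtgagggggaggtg
Plin2: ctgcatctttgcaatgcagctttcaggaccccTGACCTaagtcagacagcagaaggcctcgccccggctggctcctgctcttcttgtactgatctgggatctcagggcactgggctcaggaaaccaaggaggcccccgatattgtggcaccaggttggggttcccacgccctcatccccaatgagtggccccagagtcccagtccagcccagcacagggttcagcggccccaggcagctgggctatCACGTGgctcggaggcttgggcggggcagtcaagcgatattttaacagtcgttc
Plin4: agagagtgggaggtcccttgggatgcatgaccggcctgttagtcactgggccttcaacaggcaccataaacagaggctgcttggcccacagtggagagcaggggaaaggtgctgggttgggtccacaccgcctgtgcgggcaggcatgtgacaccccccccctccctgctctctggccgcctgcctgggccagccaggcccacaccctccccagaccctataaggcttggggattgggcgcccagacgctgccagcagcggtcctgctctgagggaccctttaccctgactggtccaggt
Plin5: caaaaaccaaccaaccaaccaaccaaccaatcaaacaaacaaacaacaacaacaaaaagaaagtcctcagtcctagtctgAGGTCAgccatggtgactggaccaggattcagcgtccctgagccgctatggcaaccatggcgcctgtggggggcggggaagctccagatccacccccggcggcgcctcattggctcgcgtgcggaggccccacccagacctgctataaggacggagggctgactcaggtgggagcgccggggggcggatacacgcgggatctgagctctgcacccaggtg
The letters searched were the E-box CACGTG, the nuclear receptor hexamer AGGTCA, direct repeat 1, which is a tandem of such hexamers with any base at the fourth place of each and 1 base between them and is the kind of site that PPARα binds, and the forkhead motif GTAAACA. A direct repeat with AGGTCA in it also counts as a hexamer. The Plin2 window held the E-box at -4 and the hexamer at -218 from the start, and the Plin5 window held the hexamer at -170. The second Plin5 window, which is not printed, held a hexamer at 14. Over the 11 windows the E-box was found in 1, the hexamer in 3, and the direct repeat and the forkhead motif in 0, whereas 7.15%, 16.3%, 0.381% and 3.65% of all 32817 windows held them. The Cidec and Plin4 windows held none of these letters.

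Fasting raised most of the 10 genes in both genotypes. In LWT, 7 were called, all higher, against 9.97% of all genes called in either direction, 4.77% higher and 5.2% lower. In LKO, 6 were called, all higher, against 12.7% of all genes, 5.87% higher and 6.82% lower. A call required an adjusted p of at most 0.05 in limma and a fold change over 1.5. The genes called in both genotypes were Cidec, Plin2, Plin4, Plin5, G0s2 and Fitm2, while Cidea was called only in LWT, a difference between genotypes that did not pass its own test (adjusted p = 0.673). The median log2 fold change of the 10 genes was 1.39 in LWT and 1.83 in LKO, and that of all genes was -0.01 and -0.02. Fed and fasted arrays did not overlap for 5 of the 10 genes in LWT and 8 in LKO, against 21.5% and 22.1% of all genes. In whole liver RNA, fewer cells of a type and less RNA per cell cannot be told apart.

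**Figure D1:**
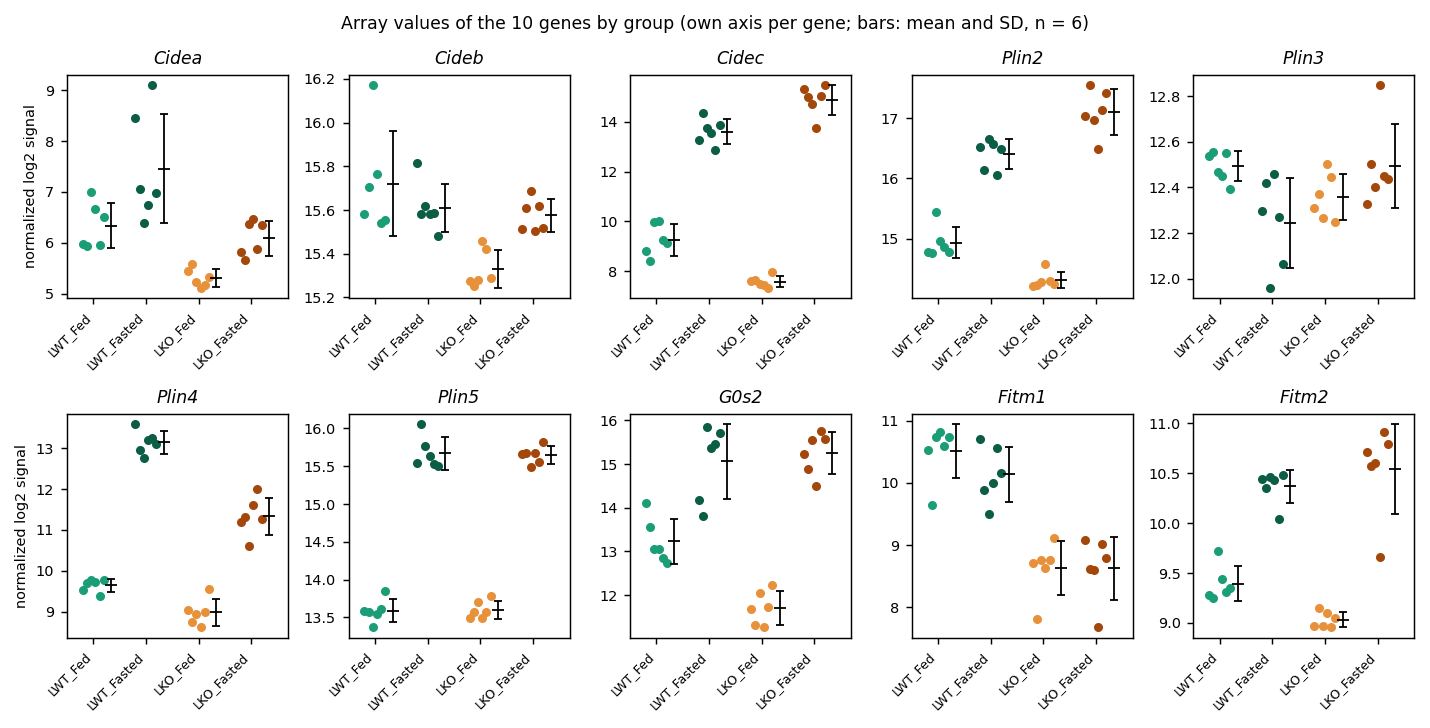
Normalized log2 signal of each of the 10 genes, 1 point per array and 6 arrays per group, with an axis of its own for each gene and the group mean and SD beside the points. Cidec rose from a mean of 7.57 in LKO_Fed to 14.88 in LKO_Fasted, Plin5 overlapped between the genotypes in each state, and Fitm1 separated the genotypes but not the feeding states.

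Between genotypes, the fed and the fasted livers differed in different ways. In fed mice, 4 of the 10 genes were called, Cidec, Plin4, G0s2 and Fitm1, all lower in LKO, against 3.83% of all genes called, 2.66% higher and 1.18% lower. The median log2 difference was -0.59, and -0.01 over all genes. LWT_Fed and LKO_Fed did not overlap for 7 of the 10 genes, against 8.63% of all genes. In fasted mice, 5 genes were called, Cidec and Plin2 higher and Cidea, Plin4 and Fitm1 lower in LKO, against 4.01% of all genes, 1.78% higher and 2.22% lower. Of these, Cidea was not called with LKO_Fasted limited to replicates 3 to 6. The median log2 difference there was 0.03, and the groups did not overlap for 2 genes, Plin4 and Fitm1, against 8.67% of all genes. The comparisons share groups, so they are not independent of each other.

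The interaction, here the log2 change with fasting in LKO less the same change in LWT, was called for 5 of the 10 genes, against 2.98% of all genes, 1.5% above and 1.47% below 0. It was above 0 for Cidec, Plin2, G0s2 and Fitm2 and below 0 for Plin4. The count fell to 3, namely Cidec, Plin2 and Plin4, without LWT_Fed replicate 5, LKO_Fasted replicate 5 or LKO_Fasted replicate 6, or when replicates 1 and 5 of LWT_Fasted were left out together. On each of the 3 slides taken alone, every called fasting change, genotype difference and interaction of the 10 genes had the sign of the pooled value.

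**Figure D2:**
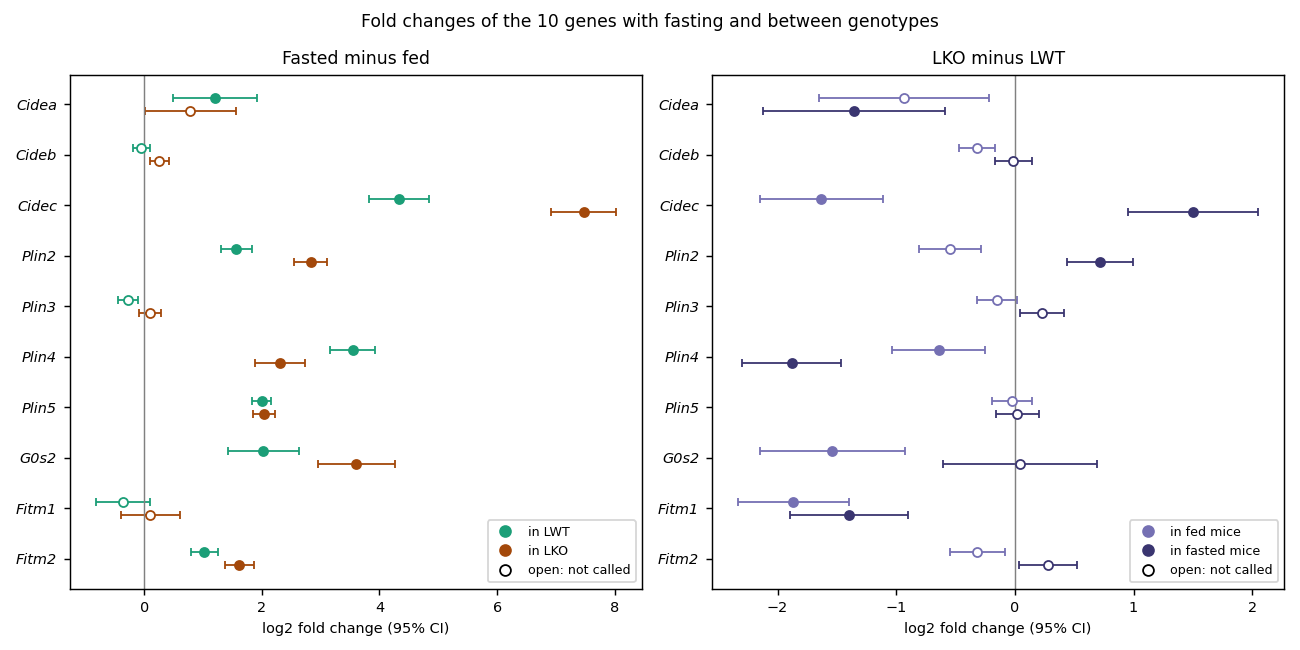
Log2 fold changes of the 10 genes with 95% confidence intervals from limma, for fasting on the left and for genotype on the right, with filled points where the gene was called. All filled points for fasting lie above 0, up to 7.47 for Cidec in LKO, and on the right Cidec and Plin2 lie below 0 in fed mice and above 0 in fasted mice.

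Of the CIDE family, Cidec (also called Fsp27), which enlarges droplets by lipid transfer and is abundant in adipocytes and in fatty liver, changed most with fasting among the 10 genes. In LWT_Fed its log2 signal ranged from 8.41 to 10.02 with a median of 9.17, and in LWT_Fasted from 12.86 to 14.36 with a median of 13.65. In LKO_Fed it ranged from 7.31 to 7.96 (median 7.54) and in LKO_Fasted from 13.75 to 15.48 (median 15.01). Fed and fasted arrays were far apart in both genotypes, the fed LKO arrays lay below every fed LWT array, and the fasted arrays of the genotypes overlapped. The fasting change was 4.34 on the log2 scale (SE 0.245, a 20.2-fold rise, adjusted p = 1.89e-11) in LWT and 7.47 (SE 0.267, 177-fold, adjusted p = 2.33e-14) in LKO. LKO was lower than LWT by a log2 difference of -1.63 (SE 0.249, adjusted p = 0.000221) in fed mice and higher by a log2 difference of 1.5 (SE 0.265, adjusted p = 0.000386) in fasted mice. The interaction was 3.13 (SE 0.363, adjusted p = 3.99e-05). Within the 3 slides the genotype difference ran from -2.12 to -1.14 in fed mice and from 0.25 to 2.20 in fasted mice. The sign of the difference thus turned on every slide, by means of 2 arrays per group. On slide 1, where the fasted difference was 0.25, the fasted arrays overlapped, at 14.36 and 13.87 in LWT and 15.0 and 13.75 in LKO.

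Cideb, the CIDE gene of normal hepatocytes, where it acts in the lipidation of VLDL, moved little. Its log2 signal ranged from 15.54 to 16.17 (median 15.64) in LWT_Fed, from 15.48 to 15.81 (median 15.58) in LWT_Fasted, from 15.25 to 15.46 (median 15.28) in LKO_Fed and from 15.50 to 15.69 (median 15.56) in LKO_Fasted. The LKO_Fed arrays lay below those of every other group, by narrow gaps. The log2 difference between genotypes in fed mice was -0.32 (SE 0.0712, adjusted p = 0.00402) and the fasting change in LKO was 0.26 (SE 0.0765, adjusted p = 0.00914), both under the 1.5-fold limit and so not called. A second, dimmer Cideb probe gave -0.15 (adjusted p = 0.189) and -0.01 (adjusted p = 0.929) for these differences.

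Cidea, best known from brown adipocytes and induced in fatty liver, was near the background of the array. Its probe was well above background on all 6 arrays of LWT_Fed and of LWT_Fasted, on 1 of LKO_Fed and on 5 of LKO_Fasted. Across arrays it read from 5.93 to 6.99 (median 6.24) in LWT_Fed, from 6.39 to 9.11 (median 7.02) in LWT_Fasted, from 5.11 to 5.59 (median 5.28) in LKO_Fed and from 5.66 to 6.47 (median 6.11) in LKO_Fasted. LKO_Fed lay below each other group without overlap, and the remaining groups overlapped. Cidea rose with fasting in LWT (log2 fold change 1.21, SE 0.342, adjusted p = 0.00705), and its fasting change in LKO was 0.79 (SE 0.373, adjusted p = 0.0972). In fasted mice it was lower in LKO by a log2 difference of -1.35 (SE 0.369, adjusted p = 0.012), a call lost with LKO_Fasted limited to replicates 3 to 6 (-1.19, adjusted p = 0.0613) or with only the compared arrays in the fit (-1.36, adjusted p = 0.108). In fed mice the difference was -0.93 (SE 0.347, adjusted p = 0.0723). On 5 of the 6 LKO_Fed arrays the signal was not well above background, so the LKO fasting change and the fed genotype difference rest largely on background signal and their sizes are not reliable.

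In fasted LWT mice, Cidea was highest on the arrays with the highest summed signal of adipocyte markers. The highest Cidea arrays, replicates 5 and 1 of LWT_Fasted at 9.11 and 8.45, also had the highest summed signal of 6 adipocyte markers, at 12.48 and 13.01, while the other 4 arrays of that group lay between 10.54 and 11.59. Within LWT_Fasted the log2 signal of Cfd spread from 6.19 to 12.35, that of Cd36 from 7.68 to 10.21 and that of Fabp4 from 9.77 to 11.07. Lep (SD 0.154), Plin1 (SD 0.0536) and Retn (SD 0.157) varied little there, with Plin1 and Retn near background, and the spread was widest for Cfd. The sum ranged from 11.36 to 11.68 in LWT_Fed, from 10.56 to 11.08 in LKO_Fed and from 11.04 to 12.08 in LKO_Fasted. Without replicates 1 and 5 of LWT_Fasted, the fasting change of Cidea in LWT was 0.50 (adjusted p = 0.0348), under the 1.5-fold limit, and the genotype difference in fasted mice was -0.66 (adjusted p = 0.031). Under that setting the fasting change in LKO (0.79, adjusted p = 0.00174) and the genotype difference in fed mice (-0.95, adjusted p = 0.00118) passed the call, so that Cidea was called with fasting in LKO and not in LWT, and the interaction moved from -0.42 to 0.29 (adjusted p = 0.566), not called in either case. Of 8 adipocyte markers listed, 6 were tested. Cfd, which was well above background on 3 of 6 LKO_Fed and 5 of 6 LKO_Fasted arrays, so that the size of its differences is uncertain, was lower in LKO in fed mice (-2.78, adjusted p = 0.0119) and in fasted mice (-3.04, adjusted p = 0.00766), as was Cd36 (-1.19, adjusted p = 0.0139, and -1.03, adjusted p = 0.0365), a fatty acid transporter that hepatocytes can express too. Fabp4, which macrophages also express, was higher in fasted LKO (0.60, adjusted p = 0.0151) and differed by -0.45 in fed mice (adjusted p = 0.0598). With fasting it rose in LKO by 0.83 (adjusted p = 0.000508), against -0.23 in LWT (adjusted p = 0.269), with an interaction of 1.06 (adjusted p = 0.00869), which has the sign of the interactions of Cidec, Plin2, G0s2 and Fitm2, and the part of cells that express Fabp4 in those was not tested. The other 3 were not called between genotypes, Lep at -0.12 in fed and -0.18 in fasted mice, Plin1 at -0.04 and -0.08, and Retn at -0.13 and 0.00. Of the markers that define adipocytes, Adipoq was well above background on 2, 3, 2 and 4 of the 6 arrays of LWT_Fed, LWT_Fasted, LKO_Fed and LKO_Fasted and did not pass the filter, and Ucp1 was on none. The part of adipocyte RNA in the Cidea result was not tested. Replicates 5 and 1 of LWT_Fasted held the lowest Cidec values of their group.

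**Figure D3:**
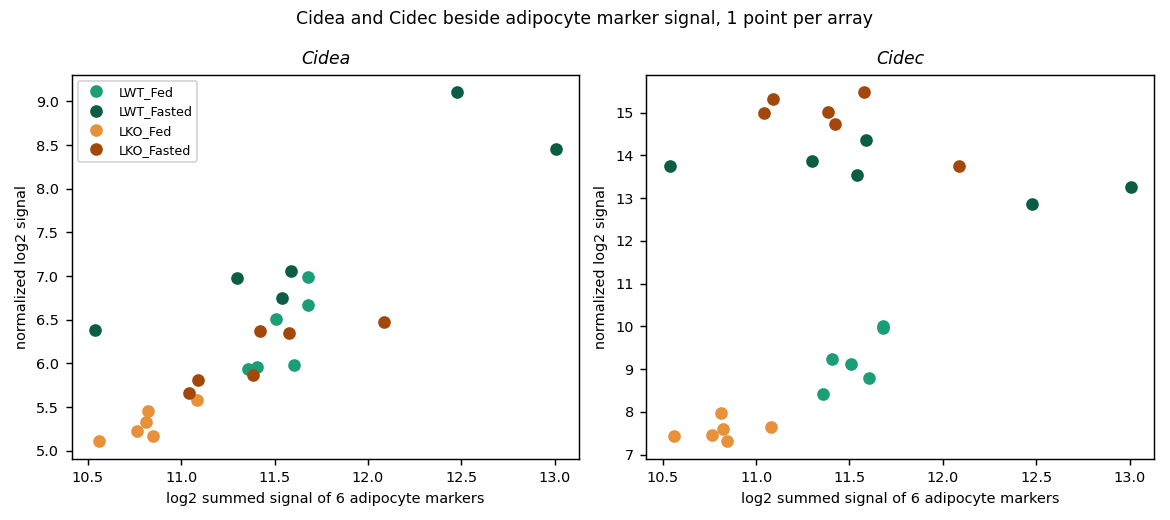
Normalized log2 signal of Cidea on the left and Cidec on the right against the log2 summed signal of 6 adipocyte markers, 1 point per array, colored by group. The LWT_Fasted arrays at 12.48 and 13.01 on the horizontal axis have the highest Cidea signals of all 24 arrays and the lowest Cidec signals of their group.

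Of the perilipins, Plin2, the coat protein of most hepatocyte droplets, followed the pattern of Cidec at a smaller scale. The log2 signal of Plin2 read from 14.76 to 15.44 (median 14.83) in LWT_Fed and from 16.06 to 16.66 (median 16.50) in LWT_Fasted. In LKO_Fed it ranged from 14.22 to 14.58 (median 14.27) and in LKO_Fasted from 16.48 to 17.55 (median 17.08). The fed groups did not overlap with each other or with the fasted groups, and the fasted groups overlapped. Plin2 rose 2.97-fold in LWT (log2 fold change 1.57, SE 0.124, adjusted p = 2.25e-09) and 7.12-fold in LKO (2.83, SE 0.135, adjusted p = 1.2e-12), with an interaction of 1.26 (SE 0.184, adjusted p = 0.000303). In fasted mice it was higher in LKO by 0.72 (SE 0.134, adjusted p = 0.000647). In fed mice the log2 difference was -0.54 (SE 0.126, adjusted p = 0.0052), a 1.46-fold difference just under the limit, and the dimmer Plin2 probe, at -0.59 (adjusted p = 0.00438), was just over it. The dimmer probe gave an interaction of 1.26 as well (adjusted p = 0.00051).

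Plin3 (TIP47), a perilipin found in the cytosol of most cells and on nascent droplets, was not called in any comparison. Plin3 read from 12.39 to 12.56 (median 12.50) in LWT_Fed, from 11.96 to 12.46 (median 12.28) in LWT_Fasted, from 12.25 to 12.50 (median 12.34) in LKO_Fed and from 12.33 to 12.85 (median 12.44) in LKO_Fasted. All 4 groups overlapped. The log2 fasting change in LWT was -0.27 (SE 0.0816, adjusted p = 0.00995), a 1.21-fold difference, and 0.10 in LKO (adjusted p = 0.373).

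Plin4 and Plin5 are neighbours. Their probes lie at chr17:56240055-56240114 and chr17:56251025-56251084 in mm9, 10.97 kb apart from start to start, and no other coding gene stands between them in the RefSeq order. Both rose with fasting in both genotypes, and they differed in the effect of genotype.

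Plin4 (S3-12), a perilipin of adipocytes and muscle, went the other way from Plin2 and Cidec in fasted mice. On the log2 scale it read from 9.37 to 9.78 (median 9.72) in LWT_Fed, from 12.76 to 13.59 (median 13.15) in LWT_Fasted, from 8.62 to 9.57 (median 8.97) in LKO_Fed and from 10.61 to 11.99 (median 11.29) in LKO_Fasted. Every fasted LKO array lay between the fed arrays and the fasted LWT arrays, and the fed groups overlapped. Plin4 rose 11.7-fold in LWT (log2 fold change 3.54, SE 0.186, adjusted p = 6.57e-12) and 4.95-fold in LKO (2.31, SE 0.203, adjusted p = 7.3e-09), with an interaction of -1.24 (SE 0.276, adjusted p = 0.00915). It was lower in LKO by -1.88 (SE 0.201, adjusted p = 2.03e-06) in fasted mice, with differences of -2.01 to -1.57 within the slides. In fed mice the difference was -0.64 (SE 0.189, adjusted p = 0.0244), a call lost without LKO_Fed replicate 4 (-0.56, adjusted p = 0.0654) or LWT_Fed replicate 4 (-0.62, adjusted p = 0.0502). Replicates 1 and 5 of LWT_Fasted, which had the most adipocyte marker signal by the sum, also held the highest Plin4 values of their group (13.59 and 13.26). Of the 6 markers, Cfd and Cd36 were lower in LKO in both states, Fabp4 was higher in fasted LKO, and the other 3 were not called between genotypes. Without these arrays, Plin4 rose by 3.36 in LWT (adjusted p = 1.51e-10), the genotype difference in fasted mice was -1.68 (adjusted p = 3.75e-05) and the interaction was -1.03 (adjusted p = 0.0379). The part of adipocyte RNA in the Plin4 results was not tested.

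Plin5, a perilipin of tissues that oxidize fatty acids, which ties droplets to mitochondria, rose by nearly the same amount in the genotypes. Its log2 signal ranged from 13.37 to 13.86 (median 13.58) in LWT_Fed, from 15.50 to 16.06 (median 15.58) in LWT_Fasted, from 13.49 to 13.79 (median 13.57) in LKO_Fed and from 15.48 to 15.82 (median 15.67) in LKO_Fasted. The fed groups overlapped with each other, as did the fasted groups, and no fed array reached a fasted one. The log2 fasting change was 2.00 (SE 0.0806, adjusted p = 1.5e-13) in LWT and 2.04 (SE 0.0878, adjusted p = 2.28e-13) in LKO. The interaction was 0.04 (95% confidence interval -0.21 to 0.29, adjusted p = 0.877). Its dimmer probe gave 2.10 and 2.16 for fasting and 0.06 for the interaction (adjusted p = 0.847).

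G0s2, the inhibitor of the lipase ATGL, rose with fasting from fed levels that did not overlap between genotypes to fasted levels that did. The G0s2 signal ran from 12.73 to 14.10 (median 13.06) in LWT_Fed, from 13.82 to 15.84 (median 15.42) in LWT_Fasted, from 11.26 to 12.24 (median 11.71) in LKO_Fed and from 14.49 to 15.75 (median 15.39) in LKO_Fasted. LKO_Fed lay below every other group, and LWT_Fed overlapped with LWT_Fasted, in which replicates 2 and 1 were low, at 13.82 and 14.17. The log2 fasting change was 2.02 (SE 0.291, adjusted p = 8.72e-06) in LWT and 3.61 (SE 0.317, adjusted p = 7.09e-09) in LKO. In fed mice G0s2 was lower in LKO by -1.54 (SE 0.295, 2.90-fold, adjusted p = 0.00129), and in fasted mice the difference was 0.04 (95% confidence interval -0.61 to 0.70, adjusted p = 0.943). The interaction was 1.58 (SE 0.43, adjusted p = 0.0291). It missed the threshold without LWT_Fed replicate 5 (1.68, adjusted p = 0.0512), LKO_Fed replicate 4 (1.47, adjusted p = 0.0512), LKO_Fasted replicate 5 (1.52, adjusted p = 0.0529) or LKO_Fasted replicate 6 (1.49, adjusted p = 0.0589), and without replicates 1 and 5 of LWT_Fasted together (1.29, adjusted p = 0.0512).

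Of the FIT family, Fitm1, known as the form of skeletal muscle and heart, differed by genotype and was not called with fasting. The Fitm1 signal ran from 9.64 to 10.82 (median 10.66) in LWT_Fed, from 9.50 to 10.70 (median 10.08) in LWT_Fasted, from 7.81 to 9.12 (median 8.73) in LKO_Fed and from 7.67 to 9.08 (median 8.70) in LKO_Fasted. No LKO array reached an LWT array in either state, while fed and fasted arrays overlapped in each genotype. Fitm1 was lower in LKO by -1.87 (SE 0.225, 3.65-fold, adjusted p = 2.38e-05) in fed mice and by -1.40 (SE 0.24, 2.64-fold, adjusted p = 0.000299) in fasted mice. The log2 fasting change was -0.36 in LWT (95% confidence interval -0.82 to 0.10, adjusted p = 0.208) and 0.11 in LKO (-0.40 to 0.61, adjusted p = 0.763). Replicates 1 and 5 of LWT_Fasted, which had the most adipocyte marker signal by the sum, held the highest Fitm1 values of that group (10.70 and 10.56). Within that group Cfd spread most of the 6 markers, and Lep, Plin1 and Retn varied little. Without replicates 1 and 5, the fasting change of Fitm1 in LWT was -0.59 (adjusted p = 0.0433), just past the limit, and the genotype difference in fasted mice was -1.16 (adjusted p = 0.00327). In fed mice, where Fitm1 was also lower in LKO, 2 of the 6 markers, Cfd and Cd36, were lower too and 4 were not called, and the part of adipocyte RNA in the genotype differences of Fitm1 was not tested. Of 7 skeletal muscle markers, Ckm, Acta1 and Actn3 were well above background on 0 of 24 arrays, and none of the 4 tested was called in any comparison. The summed signal of those 4 ranged from 8.53 to 8.69 in the LWT arrays and from 8.37 to 8.71 in the LKO arrays.

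Fitm2, the widely expressed FIT gene, rose with fasting, by more in LKO. Its log2 signal ranged from 9.25 to 9.72 (median 9.33) in LWT_Fed, from 10.04 to 10.48 (median 10.43) in LWT_Fasted, from 8.96 to 9.15 (median 9.01) in LKO_Fed and from 9.66 to 10.91 (median 10.66) in LKO_Fasted. The fed groups did not overlap, and 5 of the 6 LKO_Fasted arrays lay above LWT_Fasted with replicate 4 far below. The log2 fasting change was 1.02 (SE 0.11, adjusted p = 1.83e-07) in LWT and 1.62 (SE 0.12, adjusted p = 5.72e-10) in LKO. The interaction was 0.60 (SE 0.163, adjusted p = 0.0296), a 1.51-fold difference that stood at the edge of the call. The dimmer Fitm2 probe gave 0.52 (adjusted p = 0.0709), the call was lost in 8 of 24 fits that left out 1 array, and it was lost without replicates 1 and 5 of LWT_Fasted (0.50, adjusted p = 0.0637).

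**Figure D4:**
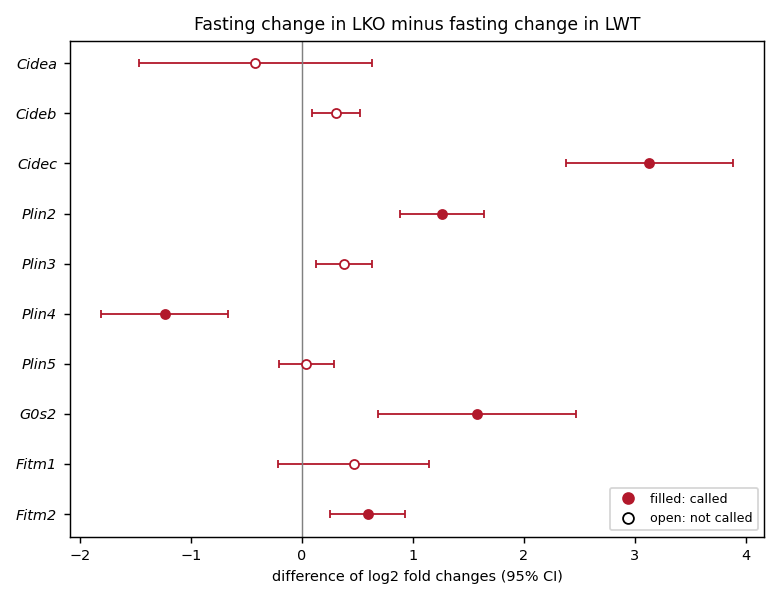
Change with fasting in LKO less the change in LWT for each of the 10 genes, on the log2 scale, with 95% confidence intervals from limma and filled points where the difference was called. Cidec at 3.13, G0s2, Plin2 and Fitm2 lie above 0, Plin4 at -1.24 lies below 0, and Plin5 is at 0.04.

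Other genes of droplet biology were taken from 4 lists of 41 tested genes. Of all genes, 4.77% were called higher and 5.2% lower with fasting in LWT, and 5.87% and 6.82% in LKO. Of 12 lipolysis genes, 4 were higher and 2 lower with fasting in LWT, and 6 were higher and 1 lower in LKO. Pnpla2, which encodes ATGL, rose by 2.03 (adjusted p = 9.41e-12) in LWT and 2.27 (adjusted p = 3.32e-12) in LKO on the log2 scale. Abhd5, its coactivator, fell in LWT by 0.79 on the log2 scale (adjusted p = 4.96e-07), and in LKO its change was -0.55 (adjusted p = 0.000126), under the 1.5-fold limit, with an interaction that was not called (adjusted p = 0.3). Hilpda, another inhibitor of ATGL, rose by 0.62 (adjusted p = 0.0461) in LWT and by 2.38 (adjusted p = 2.19e-07) in LKO, with an interaction of 1.76 (adjusted p = 0.00484). The monoglyceride lipase gene Mgll and the hormone-sensitive lipase gene Lipe rose in LKO by 1.22 and 0.62 (adjusted p = 4.86e-08 and 0.00365), and in LWT their changes were 0.57 and 0.46 (adjusted p = 0.000306 and 0.0156), both under the 1.5-fold limit. The interaction was 0.65 for Mgll (adjusted p = 0.0203) and was not called for Lipe (0.16, adjusted p = 0.721). Abhd6 rose by 0.92 and 1.18 in LWT and LKO, and Pnpla8, a mitochondrial phospholipase, by 0.72 and 1.02. Pnpla3, a lipase-related gene of fed liver, was lower in LKO than LWT in fed mice by -3.02 (adjusted p = 3.28e-06). Fasting lowered it in both genotypes. In LWT its mean log2 signal went from 11.12 to 5.69 (adjusted p = 2.55e-11), with 1 of 6 LWT_Fasted arrays well above background. In LKO, with 0 of 6 LKO_Fasted arrays well above background, it fell at least 4.46-fold (adjusted p = 4.61e-06). Its interaction, though called, has no size that can be given.

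Of 7 tested genes of droplet formation, 0 were higher and 2 lower with fasting in LWT, and 1 was higher and 2 lower in LKO. Dgat2, which makes triglyceride, changed by -0.60 on the log2 scale in LWT (adjusted p = 2.86e-06) and by -0.78 in LKO (adjusted p = 2.34e-07), and in fasted mice was lower in LKO by -0.68 (adjusted p = 1.32e-05). Acsl3, an acyl-CoA synthetase of nascent droplets, changed by -1.29 (adjusted p = 1.18e-07) and -0.90 (adjusted p = 3.34e-05). Mogat1, a monoacylglycerol acyltransferase, was lower in LKO in fed mice by -1.26 (adjusted p = 0.00035) and rose with fasting in LKO by 0.89 (adjusted p = 0.00232), against 0.18 in LWT (adjusted p = 0.519) and an interaction that was not called (adjusted p = 0.154). Bscl2, which encodes seipin, was lower in LKO by -0.33 in fed mice (adjusted p = 0.00209) and by -0.43 in fasted mice (adjusted p = 0.000259), with no overlap of the genotypes in either state, but both differences were under the 1.5-fold limit and it was not called in any comparison.

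Of 10 other genes for droplet-bound proteins, 3 rose with fasting in each genotype and 0 were called between genotypes. Of all genes, 3.83% were called between genotypes in fed and 4.01% in fasted mice, so 0 of 10 is near that share. Acsl1, an acyl-CoA synthetase, rose by 0.92 and 1.43 on the log2 scale in LWT and LKO (adjusted p = 6.9e-07 and 3.21e-09). The hydroxysteroid dehydrogenase genes Hsd17b11 and Hsd17b13 rose by 1.33 and 0.65 in LWT and by 1.48 and 0.66 in LKO. Plin1, the adipocyte perilipin, was not called.

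Of 12 regulator genes, 4 were higher and 2 lower with fasting in LWT, and 2 were higher and 2 lower in LKO. Ppara rose by 0.89 in LWT and 0.87 in LKO on the log2 scale (adjusted p = 4.27e-10 and 1.53e-09), and Creb3l3, a fasting-induced factor of lipid metabolism, by 0.59 and 0.95 (adjusted p = 1.87e-08 and 4.52e-11). Srebf1, the lipogenic factor driven by insulin, changed by -2.75 and -2.82 (adjusted p = 9.65e-13 and 1.36e-12), and was lower in LKO in fed mice (-0.62, adjusted p = 0.00223) and in fasted mice (-0.70, adjusted p = 0.001). Mlxipl, which encodes ChREBP, changed by -0.92 and -0.81 (adjusted p = 2.17e-08 and 3.11e-07). Pparg, which drives Cidec and Cidea in fatty liver, was lower in LKO in fed mice (-1.02, adjusted p = 0.0111) and differed by -0.68 in fasted mice (adjusted p = 0.0961). Foxo1 rose in LWT by 0.72 (adjusted p = 2.55e-05), had a value of 0.05 in LKO (adjusted p = 0.768), was lower in LKO in fasted mice (-0.63, adjusted p = 0.00087) and had an interaction of -0.66 (adjusted p = 0.0186). Ppargc1a, a coactivator of PPARα, rose in LWT by 0.99 (adjusted p = 0.00182), against 0.56 in LKO (adjusted p = 0.0846) and an interaction that was not called (adjusted p = 0.506).

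**Figure D5:**
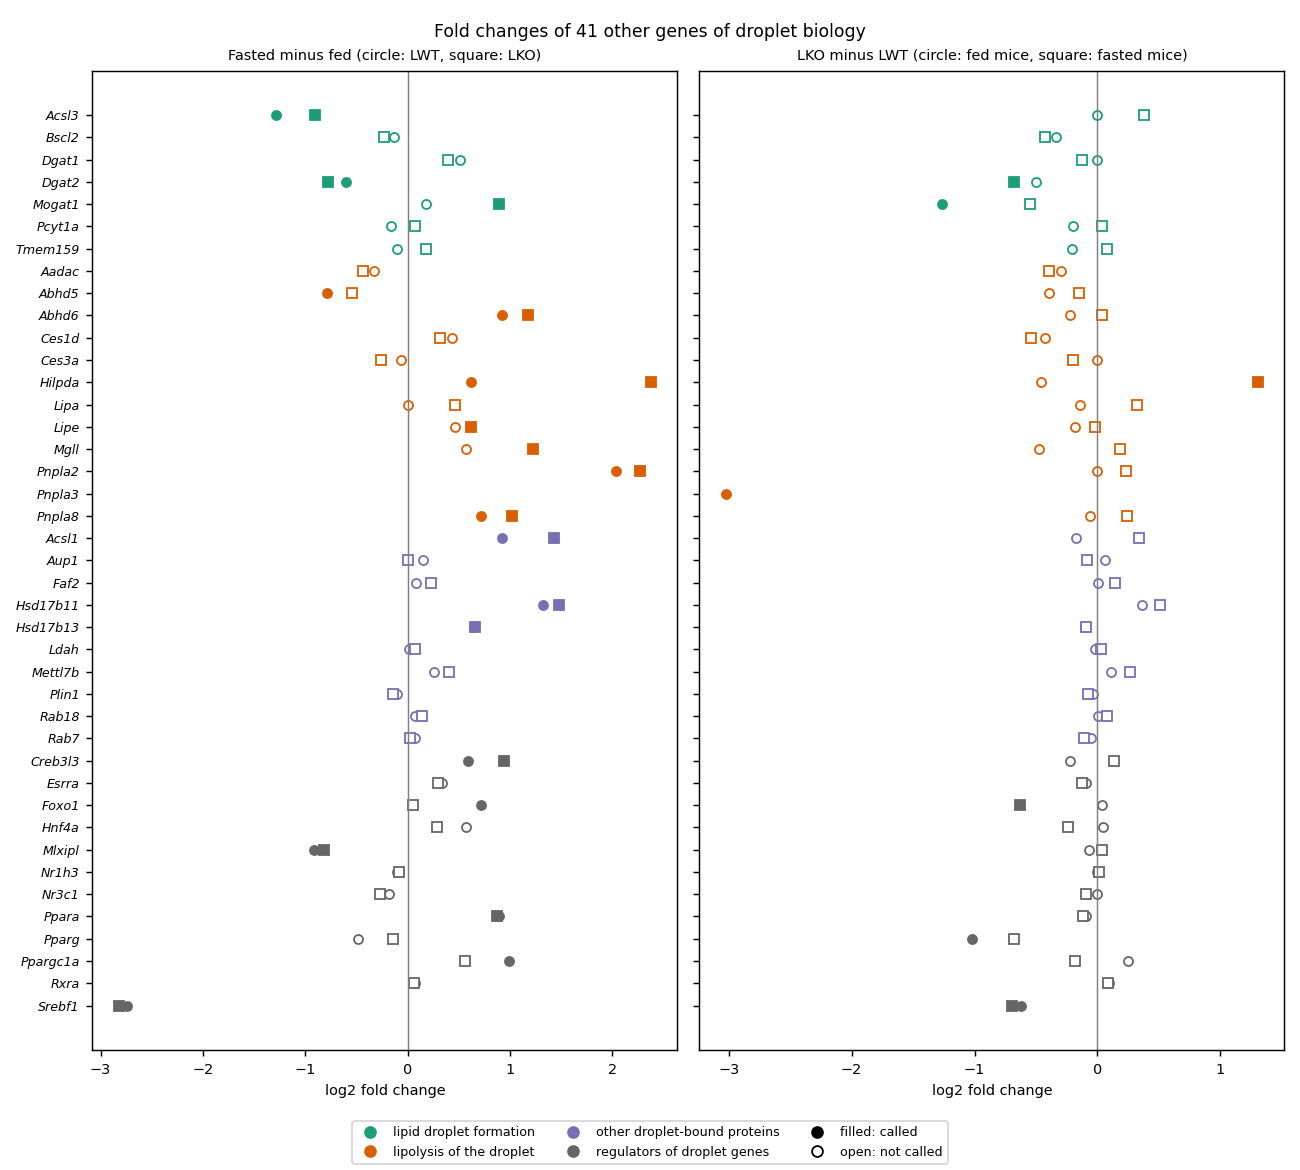
Log2 fold changes of 41 other genes of droplet biology, for fasting on the left (circles LWT, squares LKO) and for genotype on the right (circles fed mice, squares fasted mice), colored by list and filled where called. Comparisons in which a group had at most 1 array well above background, all of them of Pnpla3, are not drawn, and Hilpda at 2.38 in fasted LKO and Srebf1 near -2.8 stand at the ends of the left panel.

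The genes with the array profile most like that of each member were found over all 24 arrays, as the smallest root mean square difference of centred log2 signals among 14086 annotated genes. For Cidec these were Acot2 (0.79), Cyp4a14 (1.03) and Acot5 (1.04), and for Plin2 Crat (0.21), Slc22a21 (0.29) and Acot4 (0.30). For Plin5 they were Pnpla2 (0.19), Tlcd4 (0.23) and Grpel2 (0.24). For Fitm2 they were Vwa8 (0.18), Acot8 (0.18) and Slc25a20 (0.18). Plin4 had Cdkn1a (0.59), Asic5 (0.68) and Slc25a34 (0.77), and G0s2 had Slc25a34 (0.63), Lamb3 (0.64) and Tor3a (0.64). Lamb3 is also the next coding gene beside G0s2 in the RefSeq order. For Fitm1 they were Raet1e (0.40), Sult2a7 (0.42) and Tpm2 (0.43), and for Cidea Treh (0.49), Gnai1 (0.50) and Mogat1 (0.61). With fasting, Acot2, the gene nearest Cidec, rose by 3.48 in LWT and by 6.18 in LKO on the log2 scale. Acot5 rose by 3.66 and 4.94, and Cyp4a14 by 5.47 and 5.36, without the larger rise in LKO that Cidec had. Cdkn1a, nearest Plin4, rose by 3.22 and 2.96, with an interaction of -0.26 against -1.24 for Plin4. Its genotype difference in fasted mice was -1.12, against -1.88 for Plin4. These genes were picked for likeness on these same arrays, so their likeness to a member is no separate result.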

How the data were processed

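Cy3-labelled liver RNA of 24 mice was hybridized by the authors to Agilent SurePrint G3 arrays and spot signals were extracted with Agilent Feature Extraction 10.10.1.1, as the submitters' processing notes state. Per the file headers, the deposited scanner files hold the intensity of each spot before normalization, with probe positions in mm9. The deposited series matrix holds log2 values that the authors filtered, corrected for the washing bath and quantile normalized, and it served as an alternative. The number of arrays limits precision.

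Here, control and outlier spots were dropped, and a probe was kept if well above background on at least 5 of 6 arrays of a group (32197 of 56605 probes). Log2 median signals were quantile normalized. The bath is not named, so slide entered the model instead: group means, slide and array weights, fitted to all arrays with limma 3.58.1 in R 4.3.3 (lmFit, arrayWeights, eBayes). Two-sided p-values were adjusted by Benjamini-Hochberg over all kept probes, and SE and intervals are limma's. Means are raw, so a fold change can depart from their difference. Where no array of a group was above background, a bound is given against the higher, per array, of the lowest signal well above background and the probe's own.

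The 10 genes, the lists and the rule for named genes were chosen with earlier results of these data known. The rule named all 10 genes, listed genes called in any comparison, the 3 genes nearest in profile to each member whose group means spanned at least 1 on the log2 scale, and Pik3ca. Gene lists covered droplet formation, lipolysis, other droplet proteins, regulators, and markers of adipocytes, skeletal muscle, hepatocytes and Kupffer cells. No Kupffer cell marker of 7 and no hepatocyte marker of 8 was called in any comparison, where 3.83% and 4.01% of all genes were called between genotypes in fed and fasted mice. Marco differed by 1.46 between fasted LKO and LWT (adjusted p = 0.093). Cd68 changed by -0.50 with fasting in LWT (adjusted p = 0.0204), under the 1.5-fold limit. The summed Kupffer cell signal ran from 14.34 to 16.42 in LKO_Fasted, and cell composition was not tested. Alternatives were other signals, scalings, filters, models, thresholds and probes, and fits without 1 array each.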

Additional observations from a re-analysis of the deposited data

Results flagged for a closer look

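In 9 of 40 sets of 6 arrays (10 genes in 4 groups), an array stood far from the others of its group, by a gap to its nearest neighbour that exceeded Dixon's 95% critical value as a share of the group's range, which chance alone gives in about 1 of 20 sets. In LWT_Fed these were replicate 3, the highest array for Cideb (gap share 0.646) and Plin2 (0.707), and replicate 2, the lowest for Fitm1 (0.758). In LKO_Fed they were replicate 4, the highest for Plin2 (0.763), and replicate 2, the lowest for Fitm1 (0.632). In LWT_Fasted replicate 5 was the lowest for Fitm2 (0.716). In LKO_Fasted replicate 4 was the highest for Plin3 (0.671) and the lowest for Fitm1 (0.662) and Fitm2 (0.735). The array weights of LWT_Fed replicate 3 and LKO_Fasted replicate 4 in the limma model, 0.317 and 0.356, were the lowest of the 24.

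The fasting change differed between the genotypes by the interaction test for 5 genes. It was larger in LKO for Cidec (a log2 difference of 3.13), G0s2 (1.58), Plin2 (1.26) and Fitm2 (0.60), and smaller in LKO for Plin4 (-1.24).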

How the results depend on the processing

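No result reversed among those called under any setting, and the calls of Cidec in all 5 comparisons, of Plin5 with fasting and of Fitm1 between genotypes held in every alternative and in every fit without 1 array. Over those fits, 7 members were called with fasting in LWT, 6 to 7 with fasting in LKO, 3 to 5 between genotypes in fed mice, 5 in fasted mice and 3 to 5 for the interaction. The interaction count fell to 3 when LWT_Fasted was limited to replicates 2, 3, 4 and 6, an alternative chosen after seeing the data, as was that with LKO_Fasted limited to replicates 3 to 6, which gave 7, 6, 4, 4 and 5 calls. Cidea depended on the handling of background: from the processed signal it rose by 2.40 with fasting in LKO (adjusted p = 0.00262) and differed by -2.71 between fed genotypes (adjusted p = 0.00216), both called although 5 of 6 LKO_Fed arrays were not well above background, while its difference in fasted mice was not called with LKO_Fasted limited as above (-1.19, adjusted p = 0.0613) or with only the compared arrays (-1.36, adjusted p = 0.108). Fed Plin2 was called under median centring (-0.59) and without array weights (-0.62), and with a limit of 2-fold the calls of Plin4 in fed mice and Plin2 in fasted mice were lost. The Fitm2 interaction was called in 9 of 15 alternatives (adjusted p from 0.0125 to 0.132). Replicate numbers do not pair the mice: over 36 pairs of same-numbered arrays r ran from -0.18 to 0.28, and 2 of 24 arrays correlated best with their own number. With the replicate block in place of slide, 7, 6, 5, 5 and 5 members were called in these comparisons. Signals near background, as for Cidea, limit what can be measured.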
